A study of Glycine max with 20 samples.

Results

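LHY and GIGANTEA are genes of the plant circadian clock, and soybean carries both as duplicated copies. Here 6 of the 57274 genes in the count table are described in developing seed, 4 LHY copies and 2 GIGANTEA copies. They were taken by their identifiers. The LHY copies are GLYMA16G01980, GLYMA07G05410, GLYMA19G45030 and GLYMA03G42260, on chromosomes 16, 7, 19 and 3 as their identifiers give them. The GIGANTEA copies are GLYMA10G36600 on chromosome 10, which is the maturity locus E2, and GLYMA20G30980 on chromosome 20.

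LHY is a MYB transcription factor whose RNA peaks around dawn, and in Arabidopsis it represses genes that peak in the evening, GIGANTEA among them. GIGANTEA is a large plant protein that peaks late in the day and, in Arabidopsis, helps to release the flowering pathway from its repressors under long days. In soybean the copy at E2 is known as a maturity gene, since lines with a loss of its function flower and ripen earlier. The RefSeq annotation (Glycine_max_v4.0) names 1 LHY or GIGANTEA gene on each of these 6 chromosomes, among them GmLHY1a on chromosome 16, GmLHY1b on 7, GmLHY2a on 19, GmLHY2b on 3, E2 on 10 and the other GIGANTEA gene on 20. It carries none of the deposited identifiers, so these names are paired with the members by chromosome number only and no coordinates or sequences are given.

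The samples were whole developing seeds, cotyledon and seed coat together, of 2 soybean lines, taken 18, 25, 35, 50 or 55 DAF (days after flowering), with 2 RNA-seq libraries for each line and stage, 20 in all. DN47 is the cultivar Dongnong47, which has all seed storage protein subunits. The line cgy-2-NIL was bred into DN47 by backcrossing and carries the cgy-2 allele on a fragment introgressed into chromosome 20, which removes the α-subunit of the storage protein β-conglycinin. The methods describe 4 selected lines under this name, and which of them was sequenced is not given in the sources used here. Seeds of 1 age were pooled, and the 2 libraries of a group are described as separate biological samples, so p-values measure the spread between such pools. The hour of harvest is not given in the sources used here. Both gene families cycle over the day, so a difference between lines or stages and a difference in harvest hour cannot be told apart.

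Total counts ran from 18492047 to 30555808 per library, and the members had from 31 to 4735 counts. The α-subunit gene GLYMA20G28660 had 39 to 3825 counts in DN47 from 25 to 55 DAF and 0 to 8 in cgy-2-NIL at any stage. At 18 DAF it had 0 counts in both lines and checks no label there. The summed RPKM of 8 glycinin and β-conglycinin genes, which mark the storage tissue of the seed, was 1.26 to 2.14 at 18 DAF with 1 to 5 of the 8 at 0, and all 8 were above 0 at every later stage. At 18 DAF it was 1.26 and 1.30 in cgy-2-NIL and 1.89 and 2.14 in DN47, at 25 DAF 2921 and 8991 in cgy-2-NIL and 12864 and 26248 in DN47, and at 55 DAF 5352 and 6462 in cgy-2-NIL and 41356 and 46625 in DN47. It was thus lower in cgy-2-NIL without overlap at these 3 stages, and the lines overlapped at 35 and 50 DAF. This holds for the sum, in which the most abundant of the 8 weigh most, and not for each storage globulin gene. Outside the 8, the paper's values for GLYMA02G16440 and GLYMA19G34770 were higher in cgy-2-NIL at 18 and 55 DAF. Those for GLYMA10G03390 were lower. In bulk seeds such as these, fewer cells of a type and less RNA per cell cannot be told apart.

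The most abundant LHY copy was GLYMA16G01980 on chromosome 16. Its values are given in RPKM, reads per kilobase of the gene and scaled to the total count of the library, as deposited. At 18 DAF they were 25.9 and 31.5 in cgy-2-NIL and 58.5 and 58.7 in DN47. At 25 DAF they were 33.6 and 40.9 in cgy-2-NIL and 49.4 and 56.1 in DN47. Both cgy-2-NIL libraries were below both DN47 libraries at these stages. At 35 DAF the values were 20.7 and 18.8 in cgy-2-NIL and 25.0 and 25.4 in DN47. At 50 DAF they were 13.6 and 14.3 in cgy-2-NIL and 20.4 and 19.3 in DN47. At 55 DAF they were 18.9 and 20.4 in cgy-2-NIL and 25.2 and 26.3 in DN47. The lines did not overlap in RPKM at any of the 5 stages, with cgy-2-NIL the lower each time.

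**Figure D1:**
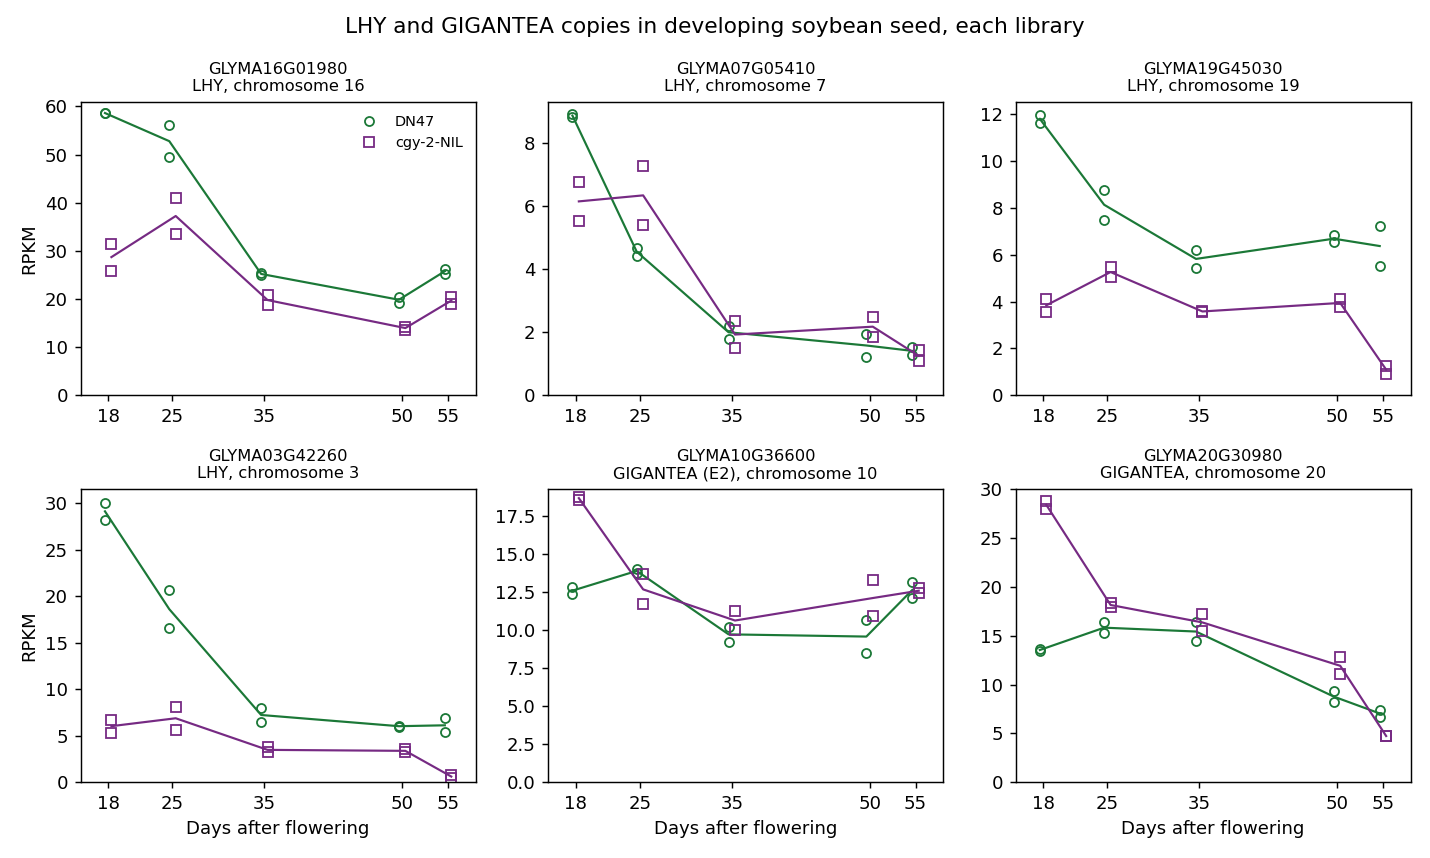
RPKM (y axis, from 0, scaled separately for each gene) against days after flowering (x axis) for the 4 LHY and 2 GIGANTEA copies, with a circle for each DN47 library, a square for each cgy-2-NIL library and a line through the means of 2 libraries. At every stage the LHY copies on chromosomes 16, 19 and 3 lie lower in cgy-2-NIL, and GLYMA20G30980 stands at 28.0 and 28.8 in cgy-2-NIL against 13.4 and 13.7 in DN47 at 18 DAF.

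The line difference of GLYMA16G01980 was tested on the counts with edgeR's quasi-likelihood F test, with p-values adjusted by the Benjamini-Hochberg method over 40721 genes and called under 0.05. At 18 DAF its log2 fold change, cgy-2-NIL over DN47, was -1.06 (standard error 0.12, adjusted p = 0.000379), a level 2.08-fold lower. The log2 fold changes at 25, 35 and 50 DAF were -0.58, -0.51 and -0.59, with adjusted p of 0.00947, 0.0120 and 0.00514. At 55 DAF the log2 fold change was -0.22 (standard error 0.12, adjusted p = 0.168), and its 95% interval ran from -0.48 to 0.04. This difference was called with upper-quartile factors (-0.33, adjusted p = 0.0305) and on library totals without normalization factors (-0.39, adjusted p = 0.0167). The call at 25 DAF was lost without either DN47 library of that stage or cgy-2-NIL replicate 1 (adjusted p up to 0.0815), and that at 50 DAF without DN47 replicate 1 (adjusted p = 0.0705). The call at 35 DAF was lost without replicate 1 of either line (adjusted p up to 0.114) and on library totals without normalization factors (adjusted p = 0.0741).

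The copies on chromosomes 19 and 3 showed the widest differences between the lines. GLYMA03G42260, on chromosome 3, had 5.33 and 6.72 RPKM in cgy-2-NIL and 30.1 and 28.2 in DN47 at 18 DAF. At 25 DAF it had 5.66 and 8.10 RPKM in cgy-2-NIL and 16.6 and 20.6 in DN47. Both DN47 values were below those of 18 DAF, while the cgy-2-NIL values of the 2 stages overlapped. At 35 DAF the values were 3.22 and 3.74 in cgy-2-NIL and 6.53 and 7.93 in DN47. At 50 DAF they were 3.20 and 3.55 in cgy-2-NIL and 5.98 and 6.07 in DN47. At 55 DAF they were 0.429 and 0.794 in cgy-2-NIL and 5.36 and 6.89 in DN47. No cgy-2-NIL library reached a DN47 library of its stage, and the 2 libraries of cgy-2-NIL at 55 DAF were the lowest of the 20.

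The fitted level of GLYMA03G42260 was 4.92-fold lower in cgy-2-NIL at 18 DAF (log2 fold change -2.30, standard error 0.21, adjusted p = 6.92e-05) and 2.85-fold lower at 25 DAF (-1.51, standard error 0.21, adjusted p = 0.00116). The fold narrowed to 2.30 at 35 DAF (adjusted p = 0.00274). By 50 DAF it was 1.88 (adjusted p = 0.0122). It was widest at 55 DAF, where the level was 8.84-fold lower (log2 fold change -3.14, standard error 0.27, adjusted p = 2.48e-07). At 50 DAF the call was lost without DN47 replicate 1 (adjusted p = 0.0789) or cgy-2-NIL replicate 2 (adjusted p = 0.0718).

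GLYMA19G45030, on chromosome 19, was also lower in cgy-2-NIL at each stage. At 18 DAF it had 3.57 and 4.11 RPKM in cgy-2-NIL and 11.6 and 12.0 in DN47. At 25 DAF the values were 5.07 and 5.46 in cgy-2-NIL and 7.50 and 8.78 in DN47. The gap between the lines was thus narrower at 25 than at 18 DAF. At 35 DAF the values were 3.59 and 3.57 in cgy-2-NIL and 5.42 and 6.23 in DN47. At 50 DAF they were 4.13 and 3.75 in cgy-2-NIL and 6.84 and 6.54 in DN47. At 55 DAF they were 0.919 and 1.27 in cgy-2-NIL and 5.52 and 7.23 in DN47. Again no library of cgy-2-NIL reached one of DN47 at the same stage.

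In the edgeR fit GLYMA19G45030 was 3.13-fold lower in cgy-2-NIL at 18 DAF (log2 fold change -1.65, standard error 0.16, adjusted p = 5.00e-05). The folds at the next stages, 25, 35 and 50 DAF, were 1.63, 1.81 and 1.79, with adjusted p of 0.0110, 0.00271 and 0.00245. At 55 DAF it was 5.17-fold lower (log2 fold change -2.37, standard error 0.18, adjusted p = 4.26e-08). The call at 25 DAF was lost without any 1 of the 4 libraries of that stage, with adjusted p between 0.0565 and 0.0857. The sum of the seed storage markers was also lower in cgy-2-NIL at 18, 25 and 55 DAF, as given above. At 18 DAF that sum was only 1.26 to 2.14 RPKM over both lines. Its part in the line differences of the 6 genes at 18, 25 and 55 DAF was not tested.

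The fourth LHY copy, GLYMA07G05410 on chromosome 7, showed no line difference past the threshold. At 18 DAF it had 5.53 and 6.76 RPKM in cgy-2-NIL and 8.83 and 8.91 in DN47. At 25 DAF the order was turned, with 5.41 and 7.27 in cgy-2-NIL and 4.42 and 4.68 in DN47. From 35 DAF on, all 12 values lay between 1.07 and 2.49 RPKM and the lines overlapped at each stage. The log2 fold change at 18 DAF was -0.55 (95% interval -1.01 to -0.10, adjusted p = 0.344) and at 25 DAF 0.40 (-0.07 to 0.87, adjusted p = 0.305). A fit to the 4 libraries of 18 DAF alone called the difference there (log2 fold change -0.57, adjusted p = 0.00208). Averaged over the stages the log2 fold change was -0.0017, with a 95% interval from -0.24 to 0.23.

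Both GIGANTEA copies were higher in cgy-2-NIL at 18 DAF, where 3 LHY copies were lower. GLYMA20G30980, on chromosome 20, had 28.0 and 28.8 RPKM in cgy-2-NIL and 13.4 and 13.7 in DN47 at that stage. At 25 DAF the values were 18.4 and 17.9 in cgy-2-NIL and 15.2 and 16.4 in DN47. The lines had come close by then, and at 35 DAF they overlapped. The values at 35 DAF were 17.2 and 15.5 in cgy-2-NIL and 14.4 and 16.4 in DN47. At 50 DAF they were 12.8 and 11.03 in cgy-2-NIL and 8.19 and 9.33 in DN47. At 55 DAF they were 4.68 and 4.77 in cgy-2-NIL and 7.38 and 6.69 in DN47. The order of the lines was therefore opposite at 18 and at 55 DAF, with no overlap at either stage.

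The level of GLYMA20G30980 at 18 DAF was 2.06-fold higher in cgy-2-NIL (log2 fold change 1.04, standard error 0.10, adjusted p = 4.32e-05). At 25 and 35 DAF the log2 fold changes were 0.12 and -0.08, with adjusted p of 0.514 and 0.646 and 95% intervals of -0.09 to 0.32 and -0.28 to 0.13. At 50 DAF it was 1.30-fold higher (log2 fold change 0.37, adjusted p = 0.0164), and this call was lost without cgy-2-NIL replicate 1 or either DN47 library, with adjusted p up to 0.107. At 55 DAF it was 1.32-fold lower (log2 fold change -0.40, standard error 0.10, adjusted p = 0.00355).

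The E2 copy, GLYMA10G36600, varied least of the 6, with a highest RPKM 2.22 times its lowest over the 20 libraries. At 18 DAF it had 18.8 and 18.6 RPKM in cgy-2-NIL and 12.4 and 12.8 in DN47. At 25 DAF the values were 11.7 and 13.7 in cgy-2-NIL and 14.0 and 13.8 in DN47. At 35 DAF they were 11.3 and 9.97 in cgy-2-NIL and 9.24 and 10.2 in DN47. At 50 DAF the values were 10.9 and 13.3 in cgy-2-NIL and 8.46 and 10.7 in DN47. At 55 DAF they were 12.4 and 12.7 in cgy-2-NIL and 12.1 and 13.1 in DN47. In RPKM the cgy-2-NIL libraries of 18 DAF lay above all the others for this gene. Divided by the normalization factor (TMM) of the library, they had 11.9 and 11.7. On that scale they lay below every library of 50 and 55 DAF, which ran from 13.8 to 18.8. The difference at 18 DAF was 1.46-fold (log2 fold change 0.54, standard error 0.10, adjusted p = 0.0137). It lost its call without any 1 of the 4 libraries of the stage (adjusted p between 0.102 and 0.241) and on library totals (adjusted p = 0.0520). At the later stages the log2 fold changes were -0.22, -0.03, 0.27 and 0.16, with adjusted p between 0.0899 and 0.880.

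**Figure D2:**
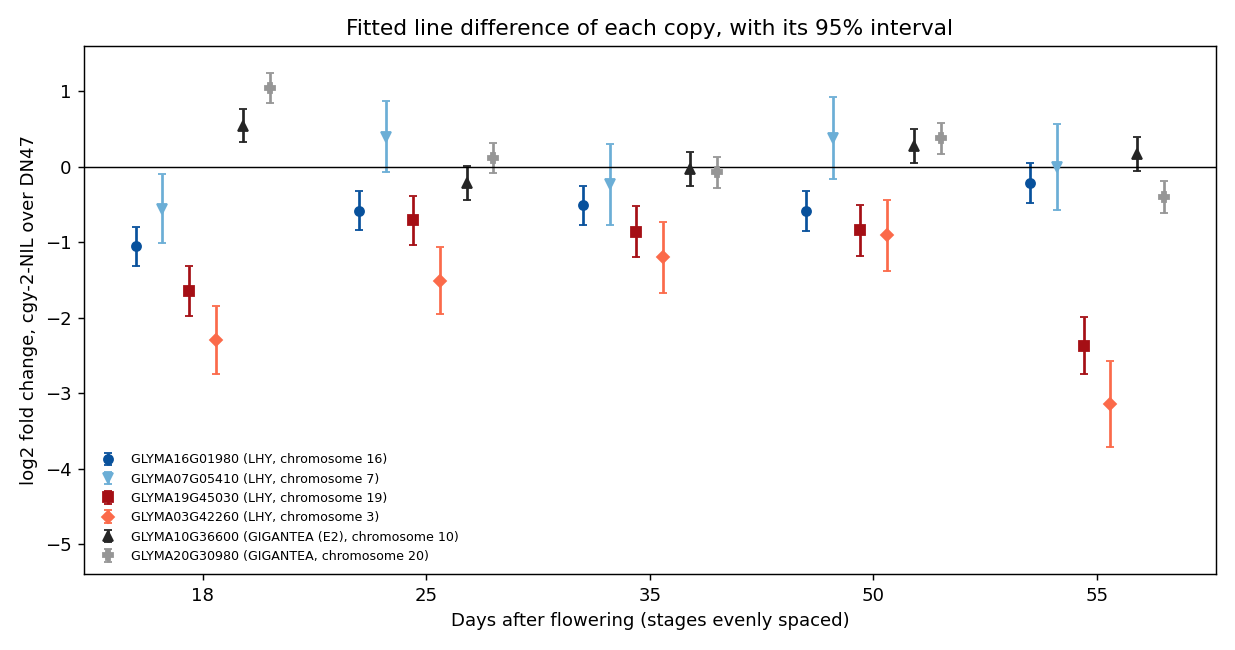
Fitted log2 fold change of cgy-2-NIL over DN47 (y axis) at each stage (x axis, stages evenly spaced) for the 6 genes, with bars for the 95% interval of the edgeR fit over 20 libraries. At 18 DAF the LHY copies lie at -0.55 to -2.30 and the GIGANTEA copies at 0.54 and 1.04, and at 55 DAF the copies on chromosomes 19 and 3 lie at -2.37 and -3.14.

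At 18 DAF, 3 of the 6 genes were called lower in cgy-2-NIL and 2 higher, where 0.803% of all genes tested were called lower and 0.383% higher. This was the stage with the fewest calls over all genes. At 25 DAF 3 members were lower and 0 higher, against 2.85% and 5.22% of all genes. The count at 25 DAF was 1 without either DN47 library of that stage or without its cgy-2-NIL replicate 1. At 35 DAF 3 were lower and 0 higher, against 7.95% and 6.74%. At each of these stages the 3 lower genes were the LHY copies on chromosomes 16, 19 and 3.

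At 50 DAF the same 3 LHY copies were lower and GLYMA20G30980 was higher, against 7.9% and 8.54% of all genes. A fit to the 4 libraries of 50 DAF alone called 0 of the 6 genes by edgeR, with adjusted p from 0.0740 upward, and without DN47 replicate 1 of that stage only GLYMA19G45030 was called. At 55 DAF 3 members were lower, GLYMA19G45030, GLYMA03G42260 and GLYMA20G30980, and 0 higher, against 24.4% and 21.8% of all genes. The shares of all genes called were far above those at 18 DAF, so the count of members stands against a higher background here, while the folds of the copies on chromosomes 19 and 3 were wider than at their other stages. The median log2 fold change of the 6 members was -0.81 at 18 DAF and -0.31 at 55 DAF, where that of all genes was 0.02 and -0.02. It joins LHY and GIGANTEA copies, which lay in opposite directions at 18 DAF. The median of the LHY copies alone was -1.35 at 18 DAF and -1.29 at 55 DAF.

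Averaged over the 5 stages, GLYMA03G42260 was 3.51-fold lower in cgy-2-NIL (log2 fold change -1.81, standard error 0.10, adjusted p = 2.87e-08). GLYMA19G45030 was 2.44-fold lower (-1.28, standard error 0.07, adjusted p = 1.23e-08) and GLYMA16G01980 1.51-fold lower (-0.59, standard error 0.06, adjusted p = 1.11e-06). Both GIGANTEA copies were slightly higher, GLYMA20G30980 by 1.16-fold (adjusted p = 0.00117) and GLYMA10G36600 by 1.11-fold (adjusted p = 0.0225). The call of GLYMA10G36600 was lost with upper-quartile factors (adjusted p = 0.0519), and without cgy-2-NIL replicate 2 of 25 DAF or, in DN47, replicate 1 of 18, 50 or 55 DAF or replicate 2 of 25 DAF (adjusted p between 0.0505 and 0.0615). Of all genes, 20% were called lower and 16.5% higher in this comparison. For GLYMA20G30980 the average joins a higher level at 18 DAF with a lower one at 55 DAF. For GLYMA10G36600 18 DAF was the only single stage called, at 0.54. Its later log2 fold changes were -0.22, -0.03, 0.27 and 0.16.

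The size of the line difference changed with stage for 5 of the 6 genes in the edgeR test of the 4 interaction terms, against 44.5% of all genes. The adjusted p was 1.27e-05 for GLYMA20G30980, 0.000154 for GLYMA19G45030, 0.000570 for GLYMA03G42260, 0.00496 for GLYMA10G36600 and 0.0129 for GLYMA16G01980. That of GLYMA16G01980 was 0.0765 without cgy-2-NIL replicate 1 of 18 DAF. For GLYMA07G05410 it was 0.0808, and 0.0206 by limma-voom.

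The 2 copies on chromosomes 19 and 3 together made up 37.7% ± 0.67 (SD, n = 2) of the summed LHY RPKM in DN47 at 18 DAF and 22.1% in both libraries of cgy-2-NIL. These shares are formed within a library and do not depend on the scaling between libraries. At 25 DAF they were 31.8% ± 1.19 and 21.8% ± 0.28, at 35 DAF 32.4% ± 2.15 and 24.6% ± 2.62, and at 50 DAF 37.3% ± 1.19 and 31.2% ± 1.28. At 55 DAF the share was 31.4% ± 3.22 in DN47 and 7.47% ± 1.64 in cgy-2-NIL. The share of the chromosome 16 copy was 54.1% to 65.1% in the DN47 groups and 59.5% to 68.7% in the cgy-2-NIL groups up to 50 DAF, and it reached 87.0% ± 2.29 in cgy-2-NIL at 55 DAF. The chromosome 16 copy thus held the majority in every group. At 55 DAF the copies on chromosomes 19 and 3 each had 14.3% to 17.2% of the sum in the DN47 libraries and 2.01% to 5.30% in those of cgy-2-NIL.

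Within GIGANTEA, the share of the E2 copy was 38.7% to 52.1% of the summed RPKM in DN47 up to 50 DAF and 64.2% ± 2.91 at 55 DAF. In cgy-2-NIL it was 39.4% to 50.3% up to 50 DAF and 72.7% ± 0.078 at 55 DAF. At 18 DAF it was 40.1% and 39.2% in cgy-2-NIL and 48.0% and 48.4% in DN47, and at 55 DAF 72.6% and 72.7% in cgy-2-NIL and 62.2% and 66.3% in DN47, so the lines lay in opposite order at these stages, without overlap at either. Averaged over the stages, where these differences offset each other, the share was 48.6% in cgy-2-NIL and 50.0% in DN47, a difference of -1.36 percentage points. An exact permutation test of the line labels within stages, over 7776 arrangements and two-sided, gave p = 0.459. At 55 DAF the E2 copy held the larger share in all 4 libraries.

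**Figure D3:**
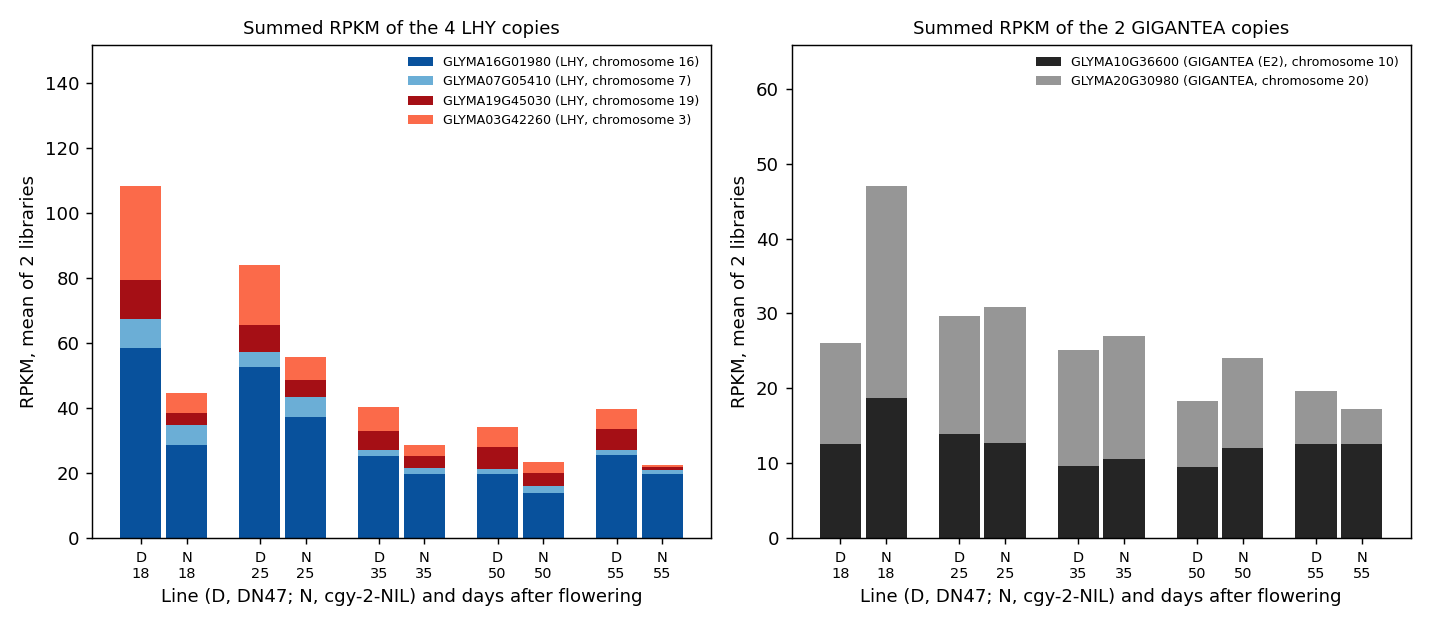
Stacked mean RPKM of 2 libraries (y axis, from 0) of the LHY copies (left) and the GIGANTEA copies (right) for each line (D, DN47; N, cgy-2-NIL) and stage in days after flowering (x axis), with no error bars. The LHY sum at 18 DAF is 108 in DN47 and 44.7 in cgy-2-NIL, and the GIGANTEA sum is 25.8 and 26.5 in the DN47 libraries and 46.7 and 47.4 in those of cgy-2-NIL.

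The summed LHY level at 18 DAF was 108 ± 0.91 RPKM (SD, n = 2) in DN47 and 44.7 ± 6.20 in cgy-2-NIL, 2.43 times as high in DN47. The summed GIGANTEA level was 25.8 and 26.5 in DN47 and 46.7 and 47.4 in cgy-2-NIL, 1.80 times as high in cgy-2-NIL. Dividing one sum by the other within each library gave 4.23 and 4.07 in DN47 and 0.863 and 1.04 in cgy-2-NIL. The balance of the 2 families therefore differed 4.37-fold between the lines at this stage.

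At 25 DAF this ratio of LHY to GIGANTEA was 2.67 and 2.99 in DN47 and 1.66 and 1.95 in cgy-2-NIL. At 35 DAF it was 1.64 and 1.57 in DN47 and 1.05 and 1.08 in cgy-2-NIL. At 50 DAF it was 2.11 and 1.65 in DN47 and 0.962 and 0.989 in cgy-2-NIL. In all of these libraries DN47 had the higher ratio, and its lead was narrower than at 18 DAF. At 55 DAF the ratio was 1.92 and 2.11 in DN47 and 1.247 and 1.36 in cgy-2-NIL. From 25 to 55 DAF the mean ratio was 1.503 to 1.93 times as high in DN47. The ratio is a description with no test of its own, since its parts were tested gene by gene above.

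**Figure D4:**
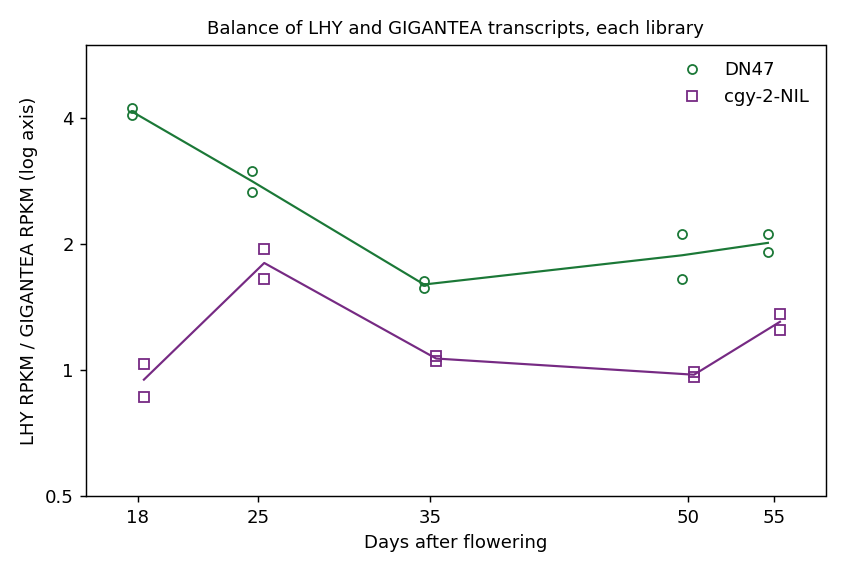
Summed LHY RPKM divided by summed GIGANTEA RPKM in each library (y axis, log scale) against days after flowering (x axis), with circles for DN47, squares for cgy-2-NIL and lines through the means of 2 libraries. The DN47 libraries lie above those of cgy-2-NIL at each stage, at 4.07 and 4.23 against 0.863 and 1.04 at 18 DAF.

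Changes between neighbouring stages depended on the scaling, as the TMM normalization factor of a library ran from 1.58 at 18 DAF down to 0.613 at 50 DAF. On library totals in place of TMM, the median change of all genes shifted by -0.65 on the log2 scale from 25 to 35 DAF in DN47 and by -0.58 in cgy-2-NIL. For 35 to 50 DAF the shifts were -0.36 and -0.45. For the line differences they stayed within 0.17 in size, at 0.17 at 35 DAF and -0.16 at 55 DAF, and 16 of the 18 line differences called at single stages were called in the same direction on both scales. Of the 24 stage changes of the members in DN47, edgeR called 10 with TMM and 5 on both scales. In cgy-2-NIL it called 16 of 24 with TMM and 11 on both. Of all genes, 33.4% to 47.5% were called with TMM over the intervals in DN47 and 39.2% to 62.2% in cgy-2-NIL. The share of all genes called on both scales was not computed, so the counts of members on both scales have no background here. Unless stated otherwise, the stage changes named below are those called on both scales, with the TMM value given.

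From 18 to 25 DAF 2 LHY copies rose and both GIGANTEA copies fell in cgy-2-NIL, while in DN47 1 LHY copy fell. In DN47 only GLYMA07G05410 was called on both scales, and it fell by 0.77 on the log2 scale (adjusted p = 0.0137). This call was lost without any 1 of the 4 DN47 libraries of these stages (adjusted p between 0.0592 and 0.0789). With TMM, 3 members were called, against 33.4% of all genes, and at this and the later intervals the share of members called is to be read against that of all genes. The others called in DN47 with TMM alone were the GIGANTEA copies, which rose. GLYMA20G30980 rose by 0.42 (adjusted p = 0.00296, and 0.145 on library totals). GLYMA10G36600 rose by 0.34 (adjusted p = 0.0195, and 0.433 on library totals). In cgy-2-NIL the LHY copies GLYMA16G01980 and GLYMA19G45030 rose by 0.52 and 0.60 (adjusted p = 0.00344 and 0.00640). Both GIGANTEA copies fell there, GLYMA20G30980 with a log2 fold change of -0.51 (adjusted p = 0.000528) and GLYMA10G36600 with -0.42 (adjusted p = 0.00450). These 4 were the members called with TMM, against 39.2% of all genes. Without cgy-2-NIL replicate 1 of 18 DAF the calls of GLYMA16G01980 and GLYMA19G45030 were lost (adjusted p = 0.0713 and 0.0760), without its replicate 2 of 25 DAF that of GLYMA16G01980 (adjusted p = 0.0625), and without its replicate 1 of 25 DAF that of GLYMA10G36600 (adjusted p = 0.0710). The DN47 count was 1 without either DN47 library of 18 DAF or without DN47 replicate 1 of 25 DAF, and that of cgy-2-NIL was 2 without its replicate 1 of 18 DAF.

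Between 25 and 35 DAF the main LHY copy, GLYMA16G01980, fell in both lines, with 1 further LHY copy in each, but 3 of these 4 calls were lost when single libraries were left out. In DN47 the log2 fold change was -0.40 for GLYMA16G01980 (adjusted p = 0.0207) and -0.69 for GLYMA03G42260 (adjusted p = 0.0176). In cgy-2-NIL it was -0.33 for GLYMA16G01980 (adjusted p = 0.0441) and -1.15 for GLYMA07G05410 (adjusted p = 0.00102). The DN47 call of GLYMA16G01980 was lost without any 1 of the 4 DN47 libraries of these stages (adjusted p between 0.0537 and 0.121), and that of GLYMA03G42260 without replicate 2 of 25 DAF or either library of 35 DAF (adjusted p between 0.0506 and 0.127). The cgy-2-NIL call of GLYMA16G01980 was lost with upper-quartile factors (adjusted p = 0.0695). It was also lost without cgy-2-NIL replicate 2 of 25 DAF (log2 fold change -0.19, adjusted p = 0.356), either cgy-2-NIL library of 35 DAF (adjusted p = 0.151 and 0.0872) or any 1 DN47 library of 18, 25, 35 or 55 DAF (adjusted p between 0.0543 and 0.0584). The members called with TMM were 3 in DN47, against 33.4% of all genes, and 4 in cgy-2-NIL, against 41.4%. Counts of 1 in DN47 were reached without its replicate 2 of 25 DAF or either library of 35 DAF, and of 2 in cgy-2-NIL without either library of 35 DAF.

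From 35 to 50 DAF GLYMA20G30980 fell in DN47 (log2 fold change -0.45, adjusted p = 0.00162). No other member changed in either line on both scales over this interval. With TMM 3 members were called in each line, against 37.5% of all genes in DN47 and 54.7% in cgy-2-NIL, and for DN47 1 without its replicate 1 of 35 DAF. GLYMA10G36600, for instance, had a log2 fold change of 0.64 in cgy-2-NIL with TMM (adjusted p = 8.87e-05) and 0.19 on library totals (adjusted p = 0.237).

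The last interval, 50 to 55 DAF, held the steepest changes of the members in cgy-2-NIL. GLYMA03G42260 fell there with a log2 fold change of -2.47 (standard error 0.27, adjusted p = 1.02e-06) and GLYMA19G45030 with -1.86 (standard error 0.18, adjusted p = 1.48e-07). GLYMA20G30980 fell with -1.35 (standard error 0.10, adjusted p = 6.69e-09) and GLYMA07G05410 with -0.82 (adjusted p = 0.0111). The call of GLYMA07G05410 was lost without cgy-2-NIL replicate 2 of 50 DAF (-0.62, adjusted p = 0.106) or replicate 1 of 55 DAF (-0.61, adjusted p = 0.110). GLYMA16G01980 rose by 0.48 (adjusted p = 0.00319), against the direction of the other LHY copies. The E2 copy had a log2 fold change of 0.04 (adjusted p = 0.797). These 5 calls stood against 62.2% of all genes.

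In DN47 over the same interval the call on both scales was GLYMA20G30980, with -0.58 (adjusted p = 0.000160), against 47.5% of all genes. The 3 LHY copies that fell in cgy-2-NIL had log2 fold changes of -0.24 (GLYMA03G42260, adjusted p = 0.388), -0.34 (GLYMA19G45030, adjusted p = 0.0884) and -0.44 (GLYMA07G05410, adjusted p = 0.203) in DN47. That of GLYMA07G05410 was -0.84 without DN47 replicate 2 of 50 DAF (adjusted p = 0.0213). The DN47 count was 2 without its replicate 2 of 50 or of 55 DAF.

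Ordered by mean RPKM, the highest group of each of the 4 LHY copies was DN47 at 18 DAF, with 58.6 ± 0.11 (SD, n = 2) for GLYMA16G01980, 29.1 ± 1.32 for GLYMA03G42260, 11.8 ± 0.25 for GLYMA19G45030 and 8.87 ± 0.061 for GLYMA07G05410. In none of them did it overlap with the next group in RPKM. This order depends on the scaling between libraries. Divided by the TMM factor of the library, GLYMA19G45030 in DN47 had 7.53 and 7.69 at 18 DAF and 11.2 and 9.13 at 50 DAF. GLYMA16G01980 in DN47 had 37.9 and 37.7 at 18 DAF and 38.1 and 39.8 at 25 DAF. For GLYMA03G42260 and GLYMA07G05410 DN47 at 18 DAF was the highest group on this scale also. In RPKM the highest group of both GIGANTEA copies was cgy-2-NIL at 18 DAF, with 28.4 ± 0.60 for GLYMA20G30980 and 18.7 ± 0.13 for GLYMA10G36600. With TMM factors GLYMA10G36600 had 11.9 and 11.7 in that group. In cgy-2-NIL it then had 15.9 and 18.8 at 50 DAF and 17.2 and 18.4 at 55 DAF. GLYMA20G30980 had 17.7 and 18.2 in cgy-2-NIL at 18 DAF, which overlapped with 17.5 and 18.7 in DN47 at 35 DAF. The lowest group in RPKM was cgy-2-NIL at 55 DAF for GLYMA07G05410, GLYMA19G45030, GLYMA03G42260 and GLYMA20G30980. It was cgy-2-NIL at 50 DAF for GLYMA16G01980 and DN47 at 50 DAF for GLYMA10G36600. From the third to the tenth rank of GLYMA10G36600 each group overlapped with the next, so its order in RPKM below the first 2 groups is not resolved. The same holds for GLYMA07G05410 from rank 5 down. With TMM factors the first 2 groups of GLYMA10G36600 lay below every group of 50 and 55 DAF. DN47 at 18 DAF then had 8.01 and 8.22 for this gene, below 13.8 and 14.9 in DN47 at 50 DAF. For GLYMA16G01980 in cgy-2-NIL the scaled values were 16.4 and 19.9 at 18 DAF and 19.9 and 20.1 at 50 DAF.

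Over the 20 libraries, the log2 TMM-normalized CPM (counts scaled to library size) of GLYMA19G45030 and GLYMA03G42260 had a Pearson correlation of 0.87, and each was the third most similar of 33409 genes to the other. Such correlations are a description, since the libraries share lines, stages and depth. The copies on chromosomes 16 and 7 had a correlation of 0.14, and the 2 GIGANTEA copies -0.15. GLYMA16G01980 and GLYMA20G30980 had -0.59. Of the 3 duplicate pairs, that on chromosomes 19 and 3 was the most alike in its course over these libraries.

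The genes outside the 6 with the most similar course had correlations from 0.76 to 0.96. For GLYMA16G01980 they were GLYMA13G32790 (0.87) and GLYMA16G04240 (0.76), and for GLYMA07G05410 GLYMA14G39600 (0.91) and GLYMA11G33580 (0.90). For GLYMA19G45030 they were GLYMA14G00590 and GLYMA12G35840 (both 0.87), and for GLYMA03G42260 GLYMA13G19910 and GLYMA04G41090 (both 0.88). The E2 copy was most like GLYMA05G29200 and GLYMA11G33660 (both 0.96), and GLYMA20G30980 most like GLYMA15G05680 (0.94) and GLYMA18G07520 (0.89). None of these 12 genes is annotated in the sources used here.

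GLYMA20G30980 lies on the chromosome that carries the introgressed fragment, with 205 genes between it and the α-subunit gene in the order of identifiers. Of the 50 tested genes nearest to it by identifier, 1 was called between the lines at 18 DAF, where the gene itself was 2.06-fold higher. Of all genes, 0.803% were called lower and 0.383% higher at that stage. Around the other 5 members 0 or 1 neighbours were called at 18 DAF. At 25, 35, 50 and 55 DAF, 7, 4, 10 and 27 of the 50 neighbours of GLYMA20G30980 were called. At 25 DAF the other members had 2 to 5, and 2.85% of all genes were called lower and 5.22% higher. At 55 DAF these shares of all genes were 24.4% and 21.8%. Whether the fragment reaches GLYMA20G30980 was not tested. GLYMA11G15580, a response regulator with a receiver domain by its annotation, had 15.01 and 15.4 RPKM in cgy-2-NIL and 9.54 and 9.88 in DN47 at 18 DAF, and was higher in cgy-2-NIL at every stage without overlap. The copies within each family are close in sequence, and how reads matching more than 1 copy were counted is not given in the sources used here, so the split between copies carries that uncertainty.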

How the data were processed

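Reads on each gene were counted by the authors with HTSeq 0.6.1 on the soybean genome and gene models of Ensembl Plants release 23, and the counts were deposited as whole numbers. Neither aligner nor strand setting is given in the sources used here. The deposited RPKM values are the authors' own and equal the count divided by gene length and library total, with no scaling between libraries. The column of each library was matched by its label, and 0 columns were left out.

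Counts of all 20 libraries were filtered with filterByExpr (40721 of 57274 genes kept), normalized by TMM and tested with edgeR 4.0.16 (R 4.3.3), by its robust quasi-likelihood F test, with the 10 groups as coefficients and 10 residual degrees of freedom. Contrasts were the line difference at each stage and over stages, the interaction and neighbouring stages. The Benjamini-Hochberg adjustment ran over all genes tested, with a threshold of 0.05. Similar genes were ranked by Pearson correlation of log2 TMM-scaled CPM computed here (prior count 2, mean of at least 20 counts), and the 2 nearest to each member are named. Neighbours are up to 25 tested genes on each side by identifier, 46 in all for GLYMA19G45030 and 50 for each other member. In simulated counts the fit at 18 DAF called 98 of 100 genes changed 4-fold, 44 of 50 changed 2-fold and 16 of 50 changed 1.5-fold, with 9 unchanged genes called of 40211 genes in all. The interaction test called 90 of 100, 27 of 50 and 6 of 50 of these, with 2 unchanged genes called. The counts were drawn at the dispersion trend, with no spread particular to a gene. Changed genes had a mean of at least 20 counts, so recovery in the real counts may be lower.

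Alternatives were DESeq2 1.42.0 (size factors and test), upper-quartile factors, TMM without the 100 most abundant genes, limma-voom (limma 3.58.1), no filter, at least 10 counts in every library, a replicate block, a fit to 1 stage, no 55 DAF, each library left out in turn and, chosen after seeing the data, library totals without factors. Further software was Python 3.11.15 with pandas 2.3.3 (tables), numpy 2.4.6 (permutations) and matplotlib 3.10.9 (figures). The members, lists and tests were chosen with earlier results of these data known. A list of 30 further clock gene identifiers is not reported, since the sources annotate only 1 of them, GLYMA11G15580.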

Additional observations from a re-analysis of the deposited data

Results flagged for a closer look

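The difference between cgy-2-NIL and DN47 itself changed with stage for 5 of the 6 genes in the edgeR interaction test, against 44.5% of all genes. GLYMA20G30980 had an adjusted p of 1.27e-05 and was higher in cgy-2-NIL at 18 DAF but lower at 55 DAF. GLYMA19G45030 (adjusted p = 0.000154) and GLYMA03G42260 (adjusted p = 0.000570) were lower in cgy-2-NIL at all 5 stages, with the widest gaps at 18 and 55 DAF. GLYMA10G36600 (adjusted p = 0.00496) and GLYMA16G01980 (adjusted p = 0.0129) had their widest gap at 18 DAF. The call of GLYMA16G01980 was lost without cgy-2-NIL replicate 1 of 18 DAF (adjusted p = 0.0765). Groups held 2 libraries, so single libraries were not screened for outlying values.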

How the results depend on the processing

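With 2 libraries per group and a spread shared over all stages, several calls near the threshold rest on single libraries. Leaving out 1 library in turn, the members called were 4 to 5 at 18 DAF, 1 to 3 at 25 DAF, 2 to 3 at 35 DAF, 1 to 4 at 50 DAF, 3 at 55 DAF, 4 to 5 across stages and 4 to 6 for the interaction. Between stages in DN47 they were 1 to 3, 1 to 3, 1 to 3 and 1 to 2 from the first interval to the last, and in cgy-2-NIL 2 to 4, 2 to 4, 2 to 3 and 4 to 5. A fit to the libraries of 50 DAF alone called 0 members. For DN47 from 50 to 55 DAF, 2 members were called with upper-quartile factors or with at least 10 counts in every library and 3 on library totals, and from 25 to 35 DAF 5 on library totals.

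Under alternatives that kept all libraries of a comparison, 829 of 894 values kept their direction and side of the threshold, or for counts stayed within 1.5 times, and 33 changed direction, none of them a line difference past the threshold. Some stage changes turned and were called in the new direction by edgeR on library totals. These were GLYMA16G01980 in DN47 from 35 to 50 DAF (adjusted p = 0.0326) and GLYMA10G36600 in DN47 from 25 to 35 DAF (adjusted p = 0.00321). GLYMA19G45030 did so from 25 to 35 DAF in DN47 (adjusted p = 0.0127) and in cgy-2-NIL (adjusted p = 0.00618). On library totals without factors, GLYMA16G01980 turned to -0.15 (DN47, 18 to 25 DAF) and -0.35 (DN47, 35 to 50 DAF), GLYMA07G05410 to 0.038 (lines, across stages) and -0.34 (DN47, 35 to 50 DAF), and GLYMA19G45030 to -0.48 and -0.56 (DN47 and cgy-2-NIL, 25 to 35 DAF). GLYMA03G42260 turned to -0.26 (DN47, 35 to 50 DAF), 0.024 (DN47, 50 to 55 DAF) and -0.044 (cgy-2-NIL, 35 to 50 DAF). GLYMA10G36600 turned to 0.13 and -0.0061 (lines, 35 and 55 DAF), -0.52 and -0.022 (DN47, 25 to 35 and 35 to 50 DAF) and -0.26 (cgy-2-NIL, 25 to 35 DAF). GLYMA20G30980 turned to 0.085 (lines, 35 DAF), -0.037 (DN47, 25 to 35 DAF) and -0.15 (cgy-2-NIL, 25 to 35 DAF). With TMM, edgeR had called GLYMA20G30980 from 25 to 35 DAF, at 0.63 in DN47 (adjusted p = 0.000117) and 0.44 in cgy-2-NIL (adjusted p = 0.00163). It had also called GLYMA10G36600 at 0.33 in DN47 from 35 to 50 DAF (adjusted p = 0.0214). In cgy-2-NIL from 25 to 35 DAF the TMM value of GLYMA10G36600 was 0.33 (adjusted p = 0.0184).

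With DESeq2 size factors and the DESeq2 test, GLYMA07G05410 turned to 0.079 and 0.080 (lines, 55 DAF) and 0.0096 and 0.0074 (across stages), and GLYMA19G45030 to -0.0353 and -0.0354 (cgy-2-NIL, 25 to 35 DAF). Across stages GLYMA07G05410 was 0.0085 with TMM less the 100 most abundant genes and 0.0084 by limma-voom, which also gave -0.049 (DN47, 35 to 50 DAF). GLYMA10G36600 was 0.012 (lines, 35 DAF) with TMM less the abundant genes and -0.13 (cgy-2-NIL, 50 to 55 DAF) with upper-quartile factors. With at least 10 counts in every library, GLYMA16G01980 turned to -0.0059 and -0.018 (DN47, 18 to 25 and 35 to 50 DAF), GLYMA07G05410 to -0.0072 (DN47, 35 to 50 DAF), GLYMA19G45030 to -0.045 (cgy-2-NIL, 25 to 35 DAF) and GLYMA10G36600 to -0.025 (cgy-2-NIL, 50 to 55 DAF).

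Leaving out 1 library, log2 fold changes that crossed 0 ranged, for GLYMA16G01980, from -0.14 to 0.16 (DN47, 35 to 50 DAF) and -0.037 to 0.27 (DN47, 50 to 55 DAF). For GLYMA07G05410 they ranged from -0.023 to 0.90 (lines, 50 DAF), -0.25 to 0.21 (lines, 55 DAF), -0.083 to 0.10 (across stages), -0.48 to 0.44 and -0.84 to 0.079 (DN47, 35 to 50 and 50 to 55 DAF), and -0.032 to 0.37 (cgy-2-NIL, 18 to 25 DAF). They were -0.085 to 0.12 for GLYMA19G45030 (cgy-2-NIL, 25 to 35 DAF) and -0.0024 to 0.20 for GLYMA03G42260 (DN47, 35 to 50 DAF). GLYMA10G36600 had -0.064 to 0.0054 (lines, 35 DAF) and -0.085 to 0.16 (cgy-2-NIL, 50 to 55 DAF), and GLYMA20G30980 -0.14 to 0.12 (cgy-2-NIL, 35 to 50 DAF).

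Replicate numbers are shared only as numbers. The deviations of same-numbered libraries correlated at -0.24 to 0.12 over the stages, and the replicate block left the member counts at 5, 3, 3, 4 and 3 from 18 to 55 DAF, with 1 further call (GLYMA03G42260, DN47, 18 to 25 DAF, -0.47, adjusted p = 0.0357). The causes of these changes were not tested.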
